A study of Mus musculus with 15 samples.

Results

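The Slc25 genes encode the mitochondrial carrier family, and their transcript levels were followed in sorted mouse islet cells. All genes whose symbol starts with Slc25 were taken, pseudogenes left out, which gave 44 carriers among the 23699 entries of each expression table. All 44 were listed once and had a usable estimate in every library, and 33 passed the filter on low values (a mean of at least 1 FPKM, fragments scaled by transcript length and sequencing depth, after rescaling of the libraries) and were tested. The choice of the genes used no measured value.

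Carriers of this family sit mostly in the inner mitochondrial membrane, where each exchanges a small set of solutes such as nucleotides, phosphate, carboxylates, amino acids, cofactors or metals between the matrix and the cytosol. They are made in the cytosol and imported through the TOM pore of the outer membrane and the small TIM chaperones. In β cells they connect glucose oxidation to insulin secretion, because ATP leaves the matrix in exchange for ADP, while the citrate and aspartate carriers move reducing equivalents and carbon between the compartments.

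RNA was sequenced in 15 libraries of FAC-sorted cells from the islets of mice on a mixed 129JC57BL/6 background. A Cre-activated red fluorescent protein (RFP) marked β cells and their descendants, and a fluorescent substrate of aldehyde dehydrogenase (aldefluor) split the RFP+ cells into ALDH- and ALDH+ populations. In the labels, control mice are triple heterozygous for Foxo1, Foxo3 and Foxo4, and knockout mice are triple knockouts. The paper describes floxed alleles, so all 3 genes are targeted only in cells with active Cre and their descendants. The Cre driver thus sets both which cells carry the RFP mark and which lose Foxo. The controls comprised 3 ALDH- and 2 ALDH+ libraries and the knockouts 5 of either kind. The Cre was RIP-Cre, driven by the insulin promoter, in 9 libraries, and Pdx-Cre, active in pancreatic precursors so that other pancreatic lineages can also carry the RFP mark, in 6. Pdx-Cre was carried by replicate 3 of control ALDH-, replicate 2 of control ALDH+ and replicates 4 and 5 of each knockout population. The methods give an age of 6 months for the RIP-Cre mice and describe their controls as wild-type, where the labels say heterozygous. Ages of the Pdx-Cre mice, and how many animals went into 1 library, are not given in the sources used here. Nothing ties a library to a separate animal, so p-values measure the spread between these samples, which may be technical.

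The fragments behind the values, estimated from the width of each confidence interval, summed to 7492010 to 10057827 per library. Foxo1 was at 12.0 to 20.1 FPKM in control and 0.0925 to 4.24 FPKM in knockout libraries, without overlap. Foxo3 spanned 12.7 to 23.0 FPKM in controls and 9.78 to 30.6 FPKM in knockouts, and Foxo4 was at or below 1.34 FPKM everywhere. A value over the whole gene does not show which exons remain, so Foxo3 is no check of its deletion. Aldh1a3 was at 0.490 to 4.09 FPKM in ALDH- and 22.1 to 76.9 FPKM in ALDH+ libraries. The β cell markers Iapp, Pdx1, Nkx6-1, Slc30a8 and G6pc2 were present in all 15 libraries. Nkx6-1 spanned 25.8 to 41.1 FPKM in Pdx-Cre and 57.2 to 97.1 FPKM in RIP-Cre libraries. Slc30a8 spanned 28.8 to 100.4 FPKM in Pdx-Cre and 158.6 to 271.7 FPKM in RIP-Cre libraries. The ranges of Iapp, Pdx1 and G6pc2 overlapped between Cre drivers. Slc2a2 was much lower in Pdx-Cre libraries, at 8.61 to 24.6 FPKM, than in RIP-Cre libraries, at 99.95 to 227 FPKM. Mafa was low, at 0.434 to 2.51 FPKM in Pdx-Cre and 2.32 to 13.9 FPKM in RIP-Cre libraries. The summed FPKM of 5 α cell markers, almost all of it Gcg (glucagon), reached 35850 in Pdx-Cre and 1019 in RIP-Cre libraries. Acinar markers summed to 390.1 FPKM in Foxo knockout ALDH- replicate 5, to 1470 FPKM in control ALDH+ replicate 2 and to 679 FPKM in Foxo knockout ALDH+ replicate 5, all Pdx-Cre, and RIP-Cre libraries stayed at or below 5.14 FPKM. In such sorted pools, fewer cells of a type and less RNA per cell cannot be told apart.

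Of the 44 carriers, 3 had a mean of at least 100 FPKM over the 15 libraries, 15 were between 10 and 100 FPKM, 15 between 1 and 10 FPKM and 11 below 1 FPKM. The first tier held the phosphate carrier Slc25a3 at a mean of 268 FPKM and the adenine nucleotide translocases Slc25a5 at 209 FPKM and Slc25a4 at 197 FPKM, which exchange ADP for ATP. Next came the glutathione carrier Slc25a39 at 57.2 FPKM, the citrate carrier Slc25a1 at 44.7 FPKM and the aspartate-glutamate carrier Slc25a12 at 36.5 FPKM. FPKM is scaled by transcript length, but the lengths used for that are not known here, so the order of carriers is approximate. Slc25a5 and Slc25a4 were neighbours in this order that could not be separated, since Slc25a5 was the higher in 11 of 15 libraries and their ratio ran from 0.616 to 1.57 with a median of 1.06. How reads matching more than one of these similar sequences were assigned is not given in the sources used here.

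**Figure D1:**
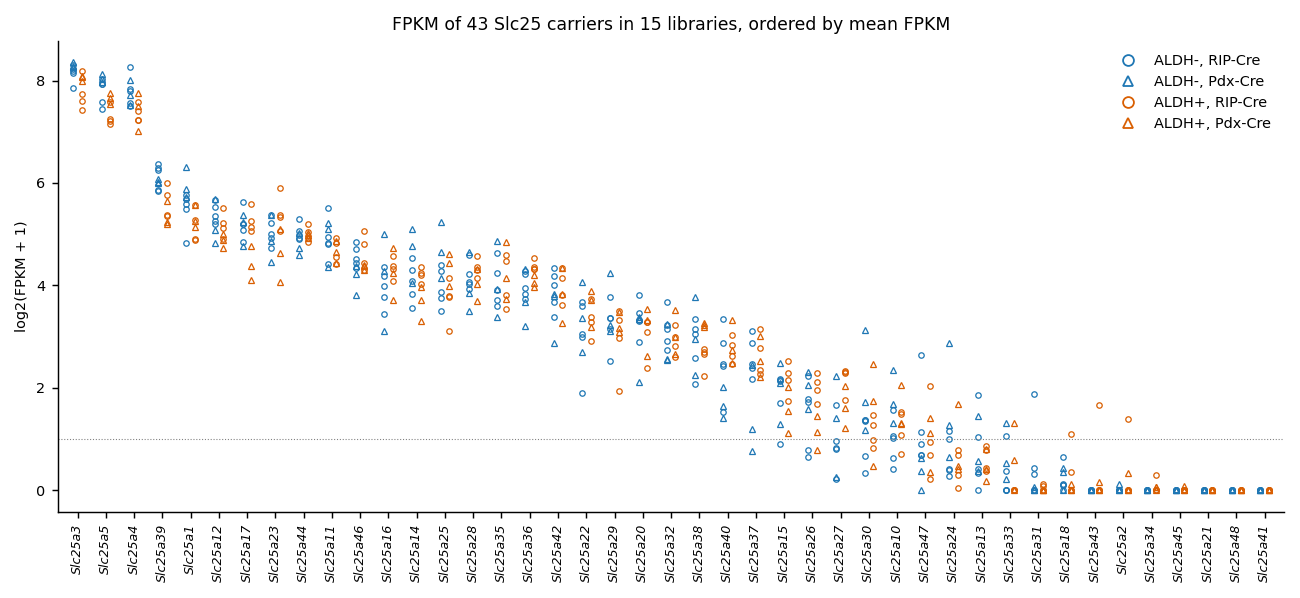
Level of 43 of the 44 Slc25 carriers as log2(FPKM + 1) on the vertical axis, ordered along the horizontal axis by mean FPKM, with 1 point per library (blue ALDH-, orange ALDH+, circles RIP-Cre, triangles Pdx-Cre) and a dotted line at 1 FPKM. Slc25a3, Slc25a5 and Slc25a4 stand above the other carriers, and the blue points lie mostly above the orange ones at the left end.

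Many carriers have a close paralog, and in most of these pairs 1 member was the higher in every library. Slc25a21, Slc25a41 and Slc25a48 were listed at 0 in all 15 libraries, 9 carriers were above 0 in some libraries only, and 32 were above 0 in every library. Slc25a31, the translocase of the germ line, had a mean of 0.232 FPKM and was listed at 0 in 9 libraries. The aspartate-glutamate carrier Slc25a12 exceeded its paralog Slc25a13 in 15 of 15 libraries, by a median factor of 80.3 over the libraries in which Slc25a13 was above 0, since it was listed at 0 in 1. Among the glutamate carriers, Slc25a22 exceeded Slc25a18 in 15 of 15 libraries, and Slc25a18 was listed at 0 in 6 of them. The iron carrier Slc25a28 (mitoferrin 2) exceeded Slc25a37 (mitoferrin 1) in all 15 libraries, by a median factor of 3.90. Slc25a39 exceeded its paralog Slc25a40 in all 15, by a median factor of 11.8. The same member of each of these pairs was the higher in both ALDH populations, both genotypes and under both Cre drivers.

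The 250 bases upstream of the annotated start are shown for the 3 most abundant carriers and for Slc25a39, the other carrier called between ALDH populations beside Slc25a5. They are RefSeq sequences on build GRCm38.p6, written 5′ to 3′ on the gene's own strand, with capitals marking matches to the GC box GGGCGG or its reverse complement CCGCCC.
Slc25a3, chr10:91123968-91124217, minus strand: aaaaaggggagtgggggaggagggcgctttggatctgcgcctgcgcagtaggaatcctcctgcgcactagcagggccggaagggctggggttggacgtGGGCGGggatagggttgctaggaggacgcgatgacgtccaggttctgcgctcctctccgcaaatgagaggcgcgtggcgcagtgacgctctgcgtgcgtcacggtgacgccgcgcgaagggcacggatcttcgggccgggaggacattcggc
Slc25a5, chrX:36795347-36795596, plus strand: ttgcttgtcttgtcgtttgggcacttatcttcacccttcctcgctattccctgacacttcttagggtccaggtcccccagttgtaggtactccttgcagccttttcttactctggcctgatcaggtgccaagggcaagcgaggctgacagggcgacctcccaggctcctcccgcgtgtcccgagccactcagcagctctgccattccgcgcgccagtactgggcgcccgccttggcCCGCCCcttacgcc
Slc25a4, chr8:46211063-46211312, minus strand: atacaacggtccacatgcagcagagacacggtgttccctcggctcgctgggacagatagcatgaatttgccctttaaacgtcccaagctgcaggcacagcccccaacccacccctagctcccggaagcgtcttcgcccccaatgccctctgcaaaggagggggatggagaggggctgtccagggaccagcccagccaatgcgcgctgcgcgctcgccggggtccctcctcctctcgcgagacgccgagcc
Slc25a39, chr11:102407518-102407767, minus strand: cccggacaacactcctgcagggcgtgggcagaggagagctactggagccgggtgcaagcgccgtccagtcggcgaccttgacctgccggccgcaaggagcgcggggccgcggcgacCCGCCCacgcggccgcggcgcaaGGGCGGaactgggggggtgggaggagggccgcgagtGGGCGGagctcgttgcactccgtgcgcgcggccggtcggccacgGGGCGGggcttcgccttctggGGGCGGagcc

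Slc25a39 held 5 GC box matches in this window, Slc25a3 and Slc25a5 held 1 each and Slc25a4 held 0. The table covered 34 of the 44 carriers with 43 windows, and GGGCGG was present on either strand in 30 of these 43 windows (69.8%), against 32.7% of all 32851 windows. The forkhead motif GTAAACA, searched because Foxo proteins bind such letters, was in 0 of the 43 windows and in 3.17% of all windows. The windows of all genes were not matched to the carriers for GC content or expression, so neither share shows a trait of the family. At 3.17%, few forkhead matches would be expected in 43 windows, and 0 shows no lack. These are letter matches in a fixed window and carry no measurement of binding.

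The first comparison set ALDH+ against ALDH- cells, averaged over genotypes with the Cre driver in the model. Slc25a5 and Slc25a39 were lower in ALDH+ cells, and no carrier was called higher. The model treated the libraries as independent, although the paper's sort yields both populations from the same islet preparation. With replicates matched by number, or by order inside each Cre driver, 0 carriers were called in limma. The other 4 of the 6 most abundant carriers, Slc25a3, Slc25a4, Slc25a1 and Slc25a12, also had lower fitted levels in ALDH+ cells, but none of them passed the threshold. Calls were made on 2 of 33 tested carriers (6.06%) in limma at a Benjamini-Hochberg adjusted p under 0.05 over all 11253 tested genes, against 5.99% of all genes in both directions and 3.77% called lower. The family's share of calls was therefore near that of all genes. Without adjustment, 7 of 33 (21.2%) had p under 0.05, against 20.8% of all genes. Markers of other islet cells moved in the same comparison. All 4 δ and PP cell markers had lower fitted levels in ALDH+ cells, with a median log2 fold change of -1.47 and 2 called lower, and the 3 tested α cell markers were negative with a median of -0.77 and 0 called. The δ and PP markers summed to 1382 to 31830 FPKM in ALDH- and 878 to 7424 FPKM in ALDH+ libraries, and the α cell markers to 672 to 35850 and 157 to 5830 FPKM. None of the 7 usable β cell markers was called, but their sum, most of it Iapp, was 83844 to 127458 FPKM in ALDH- and 34867 to 98984 FPKM in ALDH+ libraries. It was lowest in control ALDH+ replicate 1 (34867 FPKM) and Foxo knockout ALDH+ replicate 3 (44012 FPKM), where Slc25a5 was at 150.9 and 148 FPKM. Slc25a5 itself was lowest in Foxo knockout ALDH+ replicate 1 (141 FPKM), where the marker sum was the highest of the ALDH+ libraries (98984 FPKM). The part of these cells and libraries in the carrier values was not tested.

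Slc25a5 (chrX:34335647-34338801 in mm9) stood at 242, 261 and 249.9 FPKM in the control ALDH- libraries and at 150.9 and 185 FPKM in the control ALDH+ libraries. In Foxo knockout cells it was at 174, 189, 243, 260.1 and 281 FPKM in ALDH- and at 141, 190.3, 148, 217 and 202 FPKM in ALDH+ libraries. The controls did not overlap, the knockouts did, and over both genotypes 7 of 7 ALDH+ libraries lay below the ALDH- median of 246 FPKM. The fitted log2 fold change was -0.50 (SE 0.11, adjusted p = 0.0156, limma with Benjamini-Hochberg), and the two-sided exact permutation test within genotype and Cre driver gave p = 0.00278 over 720 arrangements. The fold change was -0.52 in the RIP-Cre and -0.45 in the Pdx-Cre libraries fitted alone, with adjusted p of 0.137 and 0.838 in limma. The call was lost without control ALDH- replicate 2 (adjusted p = 0.0529), control ALDH+ replicate 1 (0.130) or control ALDH+ replicate 2 (0.0554), and without the 3 libraries with acinar transcripts (log2 fold change -0.48, adjusted p = 0.0861).

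Slc25a39 (chr11:102264295-102268831 in mm9), a carrier required for mitochondrial glutathione uptake, stood at 77.3, 81.3 and 63.5 FPKM in control ALDH- and at 40.6 and 49.2 FPKM in control ALDH+ libraries. Its knockout libraries were at 75.1, 56.3, 57.0, 66.7 and 63.0 FPKM in ALDH- and at 53.1, 63.2, 39.8, 35.7 and 36.8 FPKM in ALDH+ cells. Foxo knockout ALDH+ replicate 2 was the 1 ALDH+ library inside the ALDH- range, and the other 6 lay below all 8 ALDH- libraries. The log2 fold change was -0.60 (SE 0.14, limma, Benjamini-Hochberg adjusted p = 0.0197, two-sided exact permutation p = 0.00556). It was -0.60 in the RIP-Cre and -0.64 in the Pdx-Cre libraries alone (adjusted p = 0.121 and 0.795), and -0.68 without the 3 libraries with acinar transcripts (adjusted p = 0.0446). The call was lost without control ALDH- replicate 2 (adjusted p = 0.0547) or control ALDH+ replicate 1 (log2 fold change -0.47, adjusted p = 0.227).

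Fold changes in this comparison moved with transcript length. Spearman's rho between the ALDH log2 fold change and length was 0.29 across 11137 genes and 0.37 across the 33 carriers, where genes are not independent replicates. The median fold change was -0.17 among the 3712 shortest and 0.09 among the 3713 longest genes. After this trend was removed, Slc25a5 was at -0.37 (adjusted p = 0.0605) and Slc25a39 at -0.40 (adjusted p = 0.0874) in limma, and 0 carriers were called (8 at an unadjusted p under 0.05). The lengths, medians of annotated transcripts, need not be those behind the FPKM. Slc25a23, given 766 bases, had medians of 1144 fragments and 32.2 FPKM, and Slc25a12, given 6351 bases, 944 fragments and 35.8 FPKM. At equal FPKM a longer transcript yields more fragments, so the correction of single carriers is uncertain, including Slc25a39 (given 734 bases).

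Slc25a3, which brings phosphate into the matrix for ATP synthesis, spanned 230.3 to 328 FPKM (median 302 FPKM) in ALDH- and 170.3 to 289 FPKM (median 254 FPKM) in ALDH+ libraries. All 7 ALDH+ libraries lay below the ALDH- median, and 3 lay below the whole ALDH- range. Its log2 fold change was -0.36 (SE 0.12, limma adjusted p = 0.0889, exact permutation p = 0.0139), and it passed the threshold without Foxo knockout ALDH+ replicate 2 (adjusted p = 0.0324). Slc25a4, the second adenine nucleotide translocase, spanned 181 to 307 FPKM (median 216 FPKM) in ALDH- and 128 to 216 FPKM (median 169 FPKM) in ALDH+ libraries. The ranges overlapped and the log2 fold change was -0.39 (SE 0.16, limma adjusted p = 0.175, exact permutation p = 0.025).

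Slc25a1, which exports citrate, spanned 27.5 to 78.8 FPKM (median 51.1 FPKM) in ALDH- and 28.7 to 46.7 FPKM (median 37.1 FPKM) in ALDH+ libraries. A single ALDH- library, Foxo knockout replicate 2, lay below all 7 ALDH+ libraries, while 6 of 8 ALDH- libraries lay above all of them. The log2 fold change was -0.53 (SE 0.16, limma adjusted p = 0.0668, exact permutation p = 0.0306). It passed the threshold without Foxo knockout ALDH- replicate 2 (adjusted p = 0.0148) or Foxo knockout ALDH+ replicate 2 (0.0399). Slc25a12, part of the malate-aspartate shuttle, spanned 27.3 to 50.7 FPKM in ALDH- and 25.7 to 44.8 FPKM in ALDH+ libraries, with a log2 fold change of -0.24 (SE 0.15, limma adjusted p = 0.393, exact permutation p = 0.0708).

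**Figure D2:**
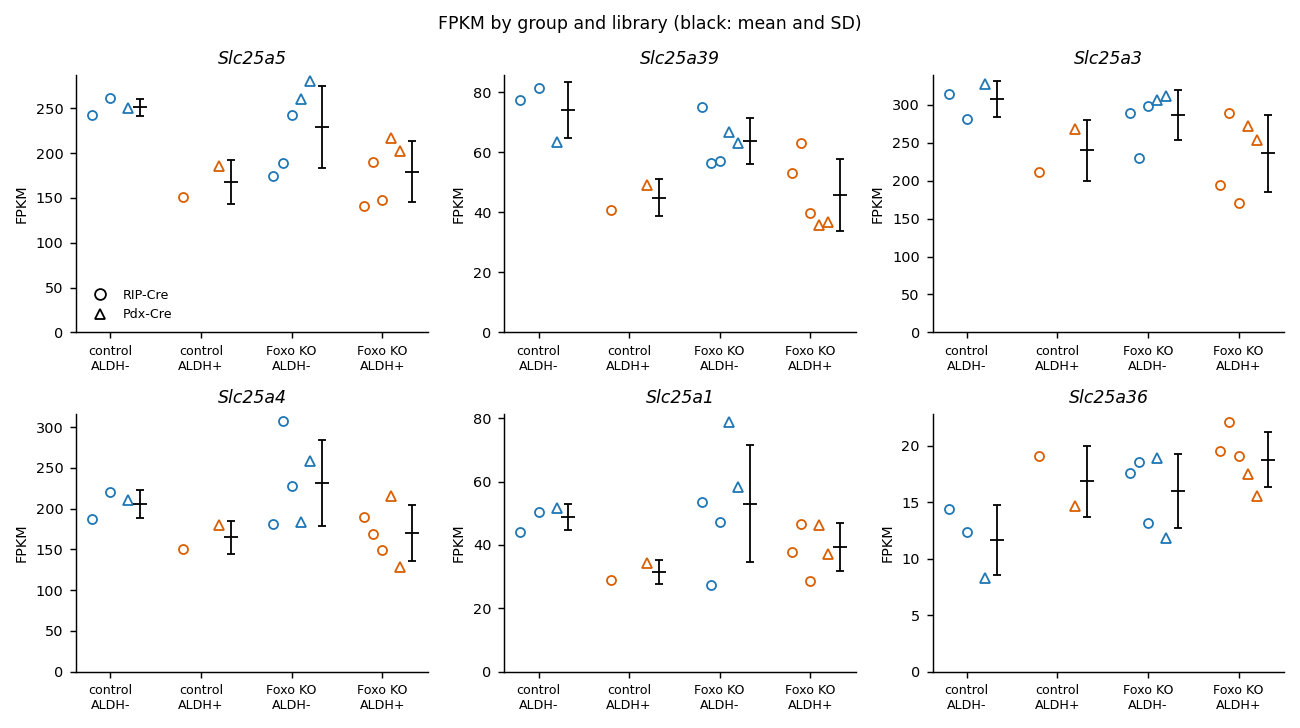
FPKM per library (vertical axes, starting at 0) of 6 carriers in the 4 groups, with 1 point per library (circles RIP-Cre, triangles Pdx-Cre) and a black bar for the group mean and SD. Slc25a5 and Slc25a39 lie lower in ALDH+ than in ALDH- libraries, with 1 ALDH+ library of Slc25a39 at 63.2 FPKM inside the ALDH- range, and Slc25a36 lies in the opposite direction.

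Higher fitted levels in ALDH+ cells were found in less abundant carriers, none past the threshold. Slc25a27, an uncoupling protein homologue also known as UCP4, spanned 0.170 to 3.72 FPKM (median 0.856 FPKM) in ALDH- and 1.33 to 4.02 FPKM (median 3.10 FPKM) in ALDH+ libraries. Of the 8 ALDH- libraries 5 lay below all ALDH+ libraries, and its log2 fold change was 1.00 (SE 0.34, limma adjusted p = 0.0915, exact permutation p = 0.025). It passed the threshold without Foxo knockout ALDH- replicate 4 (log2 fold change 1.17, adjusted p = 0.0315), and it was 1.39 in RIP-Cre and 0.37 in Pdx-Cre libraries alone. Slc25a36, a pyrimidine nucleotide carrier, spanned 8.26 to 18.9 FPKM (median 13.8 FPKM) in ALDH- and 14.6 to 22.1 FPKM (median 19.1 FPKM) in ALDH+ libraries. All 7 ALDH+ libraries were above the ALDH- median, and the log2 fold change was 0.39 (SE 0.14, limma adjusted p = 0.117, exact permutation p = 0.0153). Slc25a40, the paralog of Slc25a39, spanned 1.66 to 9.21 FPKM in ALDH- and 4.51 to 9.04 FPKM in ALDH+ libraries, with a log2 fold change of 0.59 (SE 0.30, limma adjusted p = 0.269, exact permutation p = 0.0944).

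The 6 carriers with the highest mean were all negative, with a median log2 fold change of -0.45 and a range of -0.60 to -0.24. The other 27 tested carriers had a median of 0.04, with 11 negative and 16 positive. Over all 33 the median was -0.01, against -0.02 over all tested genes. FPKM summed over the 44 carriers ran from 1182 to 1389 (mean 1246 ± 73.9, SD, n = 8) in ALDH- and from 931 to 1151 (mean 1029 ± 80.1, SD, n = 7) in ALDH+ libraries, without overlap. After rescaling of the libraries the sums ran from 1142 to 1466 and from 948 to 1156, and overlapped. Slc25a3, Slc25a5 and Slc25a4 together held 54.4% to 65.7% of the sum in ALDH- and 50.2% to 61.2% in ALDH+ libraries. The ratio of the mean sums, ALDH+ over ALDH-, was 0.826 with all carriers and 0.910 without these 3.

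**Figure D3:**
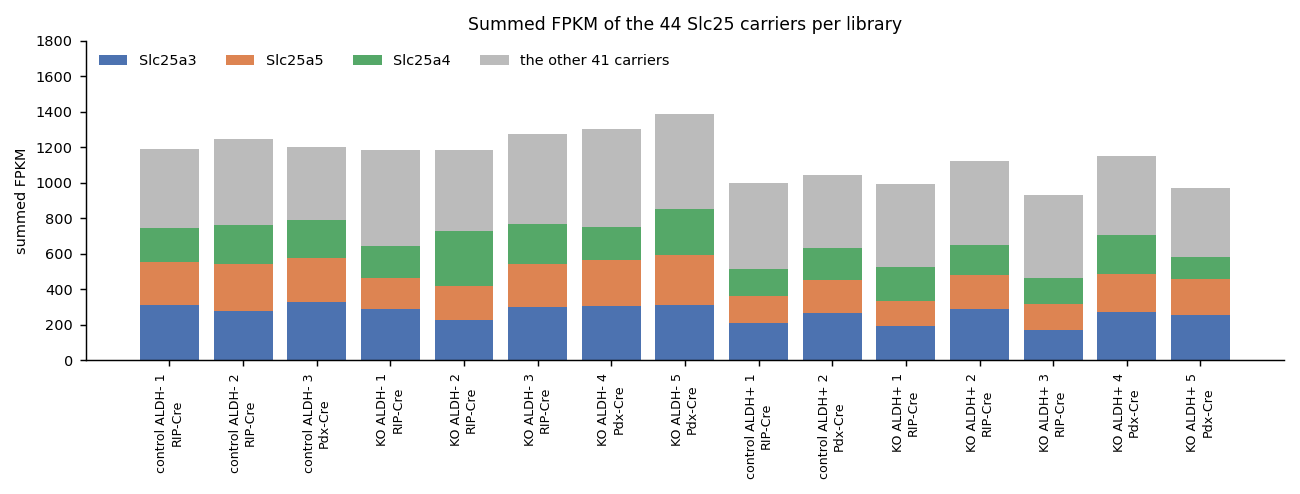
Summed FPKM of the 44 carriers in each of the 15 libraries (vertical axis, starting at 0), stacked as Slc25a3, Slc25a5, Slc25a4 and the other 41 carriers. The 8 ALDH- bars on the left reach 1182 to 1389 and the 7 ALDH+ bars on the right reach 931 to 1151.

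By role, the adenine nucleotide and phosphate carriers had 3 of 3 tested members negative and 1 called. Of the 4 iron and glutathione carriers, 3 were positive and only Slc25a39 was called. The di- and tricarboxylate carriers had 3 tested members, among them the oxoglutarate carrier Slc25a11 at -0.21 and the dicarboxylate carrier Slc25a10 at 0.00, and 0 called. The nucleotide and cofactor carriers had 7 tested members between -0.28 and 0.39, with 0 called. The ATP-Mg/phosphate carriers (3 tested), the carriers of amino acids other than aspartate and glutamate (4 tested), the uncoupling protein-like carriers (3 tested), the aspartate and glutamate carriers (2 tested), the carnitine carrier Slc25a20 and 3 carriers without an assigned substrate had 0 called as well.

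Within each genotype no carrier was called in limma. In controls 8 of 33 carriers had an unadjusted p under 0.05 in limma (24.2%, against 14.3% of all genes), and 1.22% of all genes were called. In knockouts it was 3 of 33 (9.09%, against 13.1%), and 0.0178% of all genes were called. Slc25a5 had a log2 fold change of -0.67 (SE 0.18) in controls and -0.34 (SE 0.13) in knockouts, and their difference of 0.34 (SE 0.22) did not pass the test (limma, Benjamini-Hochberg adjusted p = 0.998). Slc25a39 was at -0.72 (SE 0.23) in controls and -0.48 (SE 0.16) in knockouts, with a difference of 0.23 (SE 0.28, adjusted p = 0.998). The paper's own list for wild-type cells, from DESeq on counts, names Slc25a5 and Slc25a39 as lower in ALDH+ cells and Slc25a23 as higher. The mean counts in that list fit 2 ALDH- libraries and 1 ALDH+ library, the numbers of RIP-Cre controls here. The fit in controls used both Cre drivers, so the sample sets differ. The list comes from the same series and is no independent check. In limma Slc25a23 was at 0.52 (SE 0.32) in controls and -0.12 (SE 0.22) in knockouts, and it was not called. Its fold change was 0.94 in the RIP-Cre controls alone, where ALDH+ is 1 library. In the genotype by ALDH interaction 0 carriers and 0 genes were called, and 1 carrier had an unadjusted p under 0.05 (3.03%), against 4.23% of all genes.

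The second comparison set Foxo knockout against control cells, averaged over the ALDH populations. No carrier was called in limma, against 0.116% of all genes, and the median log2 fold change was 0.02 over the carriers and 0.01 over all genes. Without adjustment 2 of 33 carriers (6.06%) had p under 0.05, against 7.71% of all genes. The 4 most abundant carriers had log2 fold changes of -0.06 (SE 0.12) for Slc25a3, -0.02 (SE 0.11) for Slc25a5, 0.10 (SE 0.16) for Slc25a4 and -0.10 (SE 0.14) for Slc25a39.

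Slc25a17, a peroxisomal carrier of coenzyme A, FAD and NAD, had the smallest p for genotype. It was at 27.8, 32.7 and 26.4 FPKM in control ALDH- and 34.1 and 16.2 FPKM in control ALDH+ libraries, and at 48.6, 35.5, 35.8, 40.4 and 36.8 FPKM in knockout ALDH- and 32.5, 47.2, 37.0, 26.2 and 19.8 FPKM in knockout ALDH+ libraries. In ALDH- cells all 5 knockout libraries lay above the 3 controls, and in ALDH+ cells the groups overlapped. The log2 fold change was 0.42 (SE 0.16, limma adjusted p = 0.529, exact permutation p = 0.0111), and it fell short of a call after adjustment. It was 0.25 without control ALDH+ replicate 2 and 0.59 without control ALDH+ replicate 1, the 2 control ALDH+ libraries. Slc25a36 spanned 8.26 to 19.1 FPKM in controls and 11.8 to 22.1 FPKM in knockouts, with a log2 fold change of 0.30 (SE 0.14, limma adjusted p = 0.647, exact permutation p = 0.0278). Slc25a37, the iron importer mitoferrin 1, spanned 4.45 to 7.91 FPKM in controls and 0.700 to 7.07 FPKM in knockouts, with a log2 fold change of -0.55 (SE 0.28, limma adjusted p = 0.693, exact permutation p = 0.0556).

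Among the other carriers nearest to a call for genotype, Slc25a16, a coenzyme A related carrier, was at 0.40 (SE 0.24, exact permutation p = 0.2) on the log2 scale. The ornithine carrier Slc25a15 was at -0.29 (SE 0.29, exact permutation p = 0.225) and the carnitine-acylcarnitine carrier Slc25a20 at -0.25 (SE 0.27, exact permutation p = 0.447). Leaving out 1 library moved these values to between 0.19 and 0.61 for Slc25a16, -0.51 and -0.064 for Slc25a15 and -0.43 and -0.082 for Slc25a20, and each of these ends came from leaving out 1 of the 2 control ALDH+ libraries. Slc25a16 and Slc25a20 turned direction in the RIP-Cre libraries alone, to -0.081 and 0.031, and were at 1.09 (SE 0.35, limma adjusted p = 0.999) and -0.64 (SE 0.50, adjusted p = 0.999) in the Pdx-Cre libraries alone. Their control and knockout FPKM ranges overlapped, as did those of all 33 tested carriers in this comparison, in that of ALDH populations and in that of Cre drivers. Over all tested genes, 0.364% were without overlap and higher in ALDH+ and 0.311% without overlap and lower. The same shares were 0.0711% higher and 0.0889% lower for genotype, and 0.898% higher and 1.05% lower in Pdx-Cre.

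**Figure D4:**
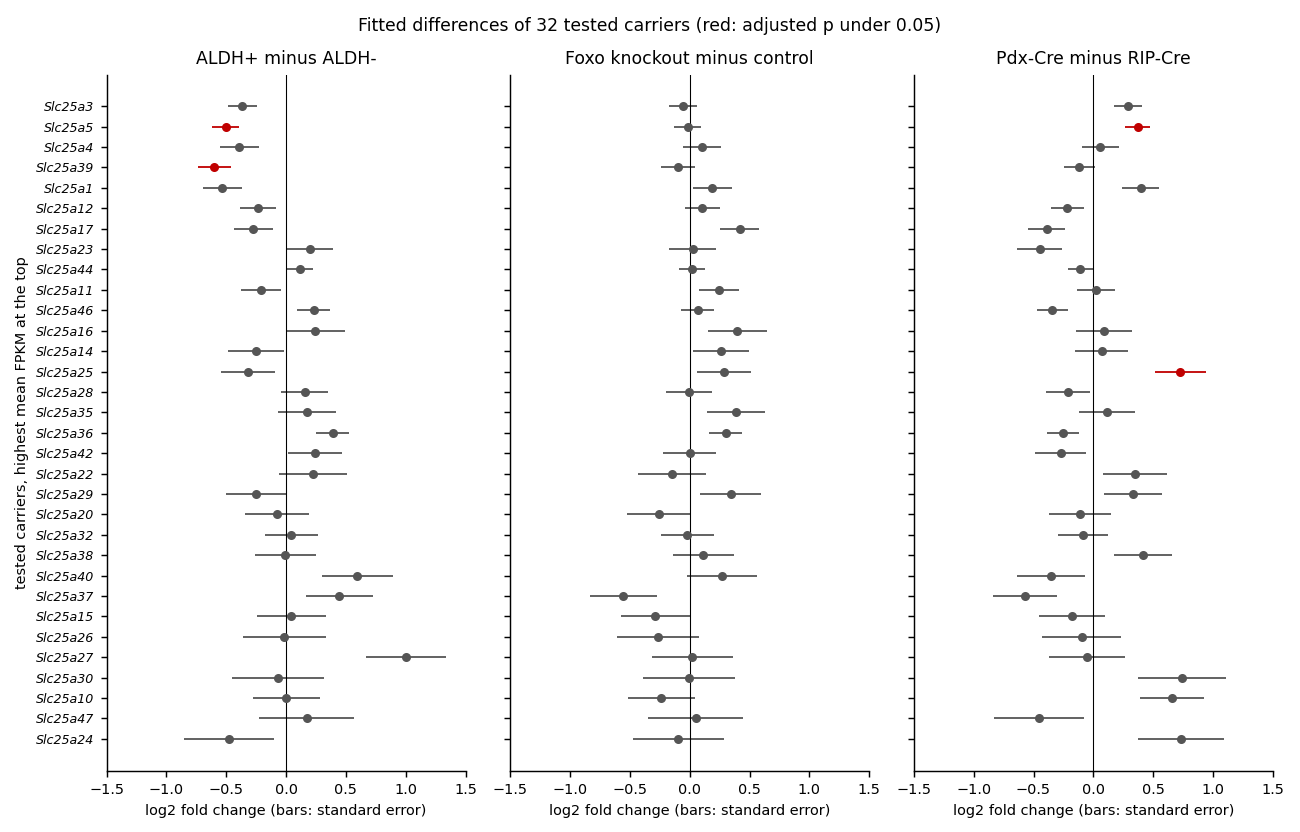
Fitted log2 fold changes (horizontal axes) with standard errors for 32 of the 33 tested carriers, ordered from the highest mean FPKM at the top, for ALDH population, genotype and Cre driver. Red points are Slc25a5 and Slc25a39 in the first panel and Slc25a5 and Slc25a25 in the third, and the second panel has none.

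The third comparison set Pdx-Cre against RIP-Cre libraries, with the 4 groups in the model. Slc25a5 and Slc25a25 were higher in Pdx-Cre libraries, and no carrier was called lower. The 2 calls of 33 (6.06%) stand against 9.73% of all genes called and 5.68% called higher, so their share was near or below that of all genes. Without adjustment 9 of 33 carriers (27.3%) had p under 0.05, against 25.7% of all genes. In the same comparison 5 of 7 usable β cell markers were called lower in Pdx-Cre libraries. Called higher were 3 of 3 tested α cell markers, 2 of 4 δ and PP cell markers and 2 of 8 tested acinar markers. So were 2 of 2 tested immune markers and 1 of 3 tested duct markers. The immune markers summed to 42.0 to 160 FPKM in Pdx-Cre and 21.2 to 38.3 FPKM in RIP-Cre libraries. The part of these other cells in the carrier values was not tested.

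Slc25a25, a calcium-regulated ATP-Mg/phosphate carrier, was at 14.9, 16.6, 20.6, 23.4, 24.3 and 36.9 FPKM in the 6 Pdx-Cre libraries. The 9 RIP-Cre libraries spanned 7.58 to 20.0 FPKM with a median of 12.8 FPKM, so 4 Pdx-Cre libraries lay above all of them and the groups overlapped. The log2 fold change was 0.73 (SE 0.21, limma adjusted p = 0.0427, exact permutation p = 0.0183). It was called in 5 of the 15 fits that left out 1 library, with adjusted p up to 0.137 in the others. Without the 3 libraries with acinar transcripts it was 0.36 (adjusted p = 0.518). The libraries whose omission ended the call were control ALDH- replicates 1, 2 and 3, Foxo knockout ALDH- replicates 1 and 5, control ALDH+ replicates 1 and 2 and Foxo knockout ALDH+ replicates 1, 2 and 5, with log2 fold changes of 0.59 to 0.73.

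Slc25a5 spanned 185 to 281 FPKM (median 233 FPKM) in Pdx-Cre and 141 to 261 FPKM (median 189 FPKM) in RIP-Cre libraries, and the groups overlapped. The log2 fold change was 0.37 (SE 0.11, limma adjusted p = 0.0389, exact permutation p = 0.005), and 0.32 (adjusted p = 0.316) without the 3 libraries with acinar transcripts. The call held in 4 of 15 fits that left out 1 library, those without control ALDH- replicate 2, Foxo knockout ALDH- replicates 3 or 4, or Foxo knockout ALDH+ replicate 2. In the others the adjusted p was 0.0534 to 0.106, and the log2 fold change 0.32 to 0.41. The ALDH fold change of Slc25a5 differed between Cre drivers by 0.04 (SE 0.22, limma adjusted p = 0.994), which did not pass the test.

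Lower fitted levels in Pdx-Cre libraries were not called for any carrier. Slc25a46, an outer membrane protein of mitochondrial dynamics, spanned 13.1 to 20.2 FPKM in Pdx-Cre and 18.8 to 32.5 FPKM in RIP-Cre libraries, with 7 of 9 RIP-Cre libraries above all Pdx-Cre libraries. Its log2 fold change was -0.34 (SE 0.13, limma adjusted p = 0.108, exact permutation p = 0.0217). Slc25a23, an ATP-Mg/phosphate carrier like Slc25a25, spanned 15.6 to 40.5 FPKM in Pdx-Cre and 25.7 to 58.8 FPKM in RIP-Cre libraries, with a log2 fold change of -0.45 (SE 0.19, limma adjusted p = 0.138, exact permutation p = 0.0533). That difference was -0.09 without the 3 libraries with acinar transcripts. Slc25a17 was at -0.39 (SE 0.16, adjusted p = 0.125, exact permutation p = 0.05) and Slc25a1 at 0.40 (SE 0.15, adjusted p = 0.119, exact permutation p = 0.0267). Slc25a23 was the higher of the pair with Slc25a25 in 12 of 15 libraries, at a median ratio of 2.28.

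**Figure D5:**
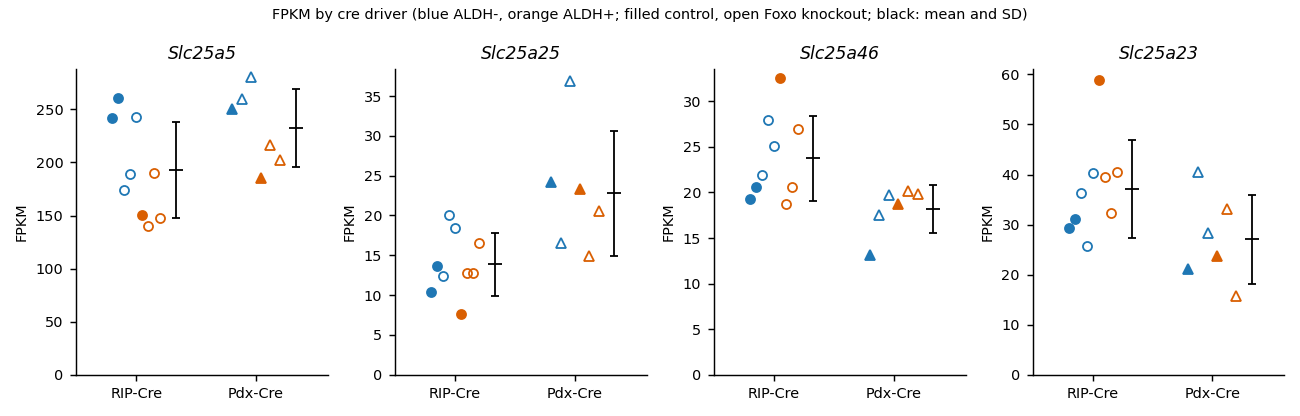
FPKM per library (vertical axes, starting at 0) of Slc25a5, Slc25a25, Slc25a46 and Slc25a23 in the 9 RIP-Cre and 6 Pdx-Cre libraries, coloured by ALDH population and filled for controls, with a black bar for mean and SD. Slc25a25 lies above the RIP-Cre range in 4 Pdx-Cre libraries, and the groups overlap for all 4 carriers.

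In the Cre driver by ALDH interaction 0 carriers and 0 genes were called in limma, and 4 carriers had an unadjusted p under 0.05 (12.1%, against 4.54% of all genes). All 4 had a lower ALDH fold change in Pdx-Cre than in RIP-Cre libraries: Slc25a14, an uncoupling protein homologue, by a log2 difference of -1.15 (SE 0.35), Slc25a17 by -0.78 (SE 0.25), the S-adenosylmethionine carrier Slc25a26 by -1.53 (SE 0.55) and Slc25a23 by -0.74 (SE 0.33). Their adjusted p was 0.994.

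Genes that work with the carriers were counted by lists. All 14 tested genes of carrier import (TOM subunits, small TIM chaperones and Timm22) had lower fitted levels in ALDH+ cells, with a median log2 fold change of -0.38, where 52.3% of all tested genes were negative. Of these 14, 3 were called lower, where 3.77% of all tested genes were called lower. These values carry no correction for the length trend. The 3 were the small TOM subunits Tomm7 at -0.999 (SE 0.18, limma adjusted p = 0.00647) and Tomm5 at -0.79 (SE 0.18, adjusted p = 0.0175) and the TIM chaperone Fxc1 at -0.65 (SE 0.18, adjusted p = 0.0433). Of the 3 porins of the outer membrane Vdac3 was called lower (against the same 3.77% of all genes), at -0.48 (SE 0.13, adjusted p = 0.0383). Neither tested subunit of the pyruvate carrier was called, at -0.52 for Brp44 and -0.36 for Brp44l. Of 5 tested family members under other symbols 0 were called, among them Ucp2, the uncoupling protein of β cells, at -0.16 (SE 0.16) and a median of 52.2 FPKM, and Mtch1 at -0.51 (SE 0.18, adjusted p = 0.110). For genotype 0 genes of these lists were called, and for Cre driver Tomm6 was called higher in Pdx-Cre libraries, at 0.89 (SE 0.16, adjusted p = 0.00312).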

How the data were processed

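RFP+ islet cells were sorted into ALDH- and ALDH+ fractions, and poly-A RNA was prepared with an Illumina TruSeq kit. The authors deposited 1 table per library of FPKM with the bounds of its confidence interval. The submitters' processing notes name bcl2fastq 1.8.4, TopHat2 2.0.4 and build mm9, and the quantifier is not given in the sources used here. FPKM is relative to the mapped total of each library, so a few very abundant transcripts can shift all others.

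Symbols listed more than once (248) and 63 lines with a failed or too deep estimate were left out (Ins1 in all 15 libraries, Ins2 in 3), which left 22924 genes. Libraries were rescaled by trimmed means of M-values (30% of M and 5% of A trimmed on each side), 1 was added, and log2 values of the 11253 genes with a mean of at least 1 were fitted in limma 3.58.1 (R 4.3.3, trended prior variance) on 4 groups and Cre driver. Fold changes are on this log2(FPKM + 1) scale, which understates the change of low genes. Tests were two-sided, with Benjamini-Hochberg adjustment over all tested genes and a threshold of 0.05. The study's own tests used counts, which were not used here.

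Named carriers were the 6 with the highest mean FPKM, every carrier called, and for ALDH population, genotype and Cre driver up to 3 with the smallest p in each direction. Exact permutation tests were run on 9, 12 and 10 carriers, with labels permuted inside strata (720, 360 and 600 arrangements). Their p-values are not adjusted, and most of these carriers were picked for a small p in the same libraries, so calls rest on limma alone. The single values of 1 tested carrier are not reported here. The members and lists were chosen with earlier results of these data known. Correlations of log2 values within groups were 0.936 to 0.982. Transcript lengths were medians of GENCODE M21 transcripts by symbol. The procedures were tested on simulated data with independent noise in each library. That simulation held no Cre effect, pairing or length trend, so it does not cover them. The alternatives were a pseudocount of 0.1, no filter, FPKM as deposited, upper-quartile scaling, a length correction, no Cre term, each Cre driver or the compared groups alone, a replicate block, and each library left out. Leaving out the 3 libraries with acinar transcripts was chosen after seeing the data.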

Additional observations from a re-analysis of the deposited data

Results flagged for a closer look

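Of 34 groups of 4 to 10 libraries tested for a library far from the rest by Dixon's criterion, 3 held one, and chance alone marks about 1 in 20. Slc25a3 was at 230.3 FPKM in Foxo knockout ALDH- replicate 2, where the other 4 libraries of the group were at 288 to 312 FPKM. Slc25a46 was at 26.9 FPKM in Foxo knockout ALDH+ replicate 3, where the other 4 were at 18.8 to 20.6 FPKM. Slc25a23 was at 15.6 FPKM in Foxo knockout ALDH+ replicate 5, a library with acinar transcripts, where the other 4 were at 32.2 to 40.6 FPKM.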

How the results depend on the processing

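For ALDH populations 2 carriers were called. In limma the count was 0 with the length trend removed (8 at an unadjusted p under 0.05), 0 in RIP-Cre (5) or Pdx-Cre (4) libraries alone, 1 without a Cre term and 1 (Slc25a39) without the 3 libraries with acinar transcripts, and it ran from 0 to 4 when 1 library was left out. With the replicate block it was 0 (3 unadjusted), and 0 (6 unadjusted) with the block inside each Cre driver. By replicate number, r of deviations was -0.04 to 0.07 over 7 pairs. The 1 best partner, control 2, joined a RIP-Cre and a Pdx-Cre library. By order inside each Cre driver, r was -0.08 to 0.07. Deviations from the means of such small groups cannot show which samples are paired. The sort described in the paper yields both populations from the same islets, so pairs are possible by design. Why the calls were lost with the block was not tested. For Cre driver the count was 2, and it was 1 with no filter, 1 with FPKM as deposited, 1 with the length trend removed and 0 (4 unadjusted) without the 3 libraries with acinar transcripts, with 0 to 2 when 1 library was left out. The other 5 comparisons had 0 calls under every alternative run. For genotype, Slc25a16 and Slc25a20 changed sign in the RIP-Cre libraries alone, to -0.081 and 0.031. Among the refits of single named carriers 479 kept direction and side of the threshold, 43 lost a call, 4 gained one and these 2 reversed. The causes were not tested. Carriers under 1 FPKM rest on at most 89.0 fragments per library, and they were not tested.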
